A study of Mus musculus with 3 samples.

Results

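Of the 870 peaks in 3 ChIP-seq peak lists of mouse pancreatic islets, 272 lay more than 5 kb and at most 50 kb from the nearest protein-coding gene. These intergenic peaks were chosen by position alone, among the peaks on chromosomes 1 to 19 and X, as the distance from the peak's ends to the nearest RefSeq protein-coding gene span. They made up 94 of 241 peaks (39.0%) for the Arid1a antibody in control islets, 114 of 365 (31.2%) for the same antibody in Arid1a-knockout islets, and 64 of 223 (28.7%) for an HDAC6 antibody in control islets. Exact (Clopper-Pearson) 95% binomial intervals of those shares were 32.8% to 45.5%, 26.5% to 36.3% and 22.9% to 35.1%. Such intervals express counting error alone and take each peak as independent of its neighbours.

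The islets were primary mouse tissue, pooled after collection. The control mice carry the genotype label con and the knockout mice the label arid1a ko; the design text calls the latter PCAL/L and says that they lack Arid1a expression in the pancreas. Age, strain, the deleting Cre line and the number of animals in a pool are not given in the sources used here. There was 1 library for each of the 3 groups; no value below has a replicate error and no p-value compares genotypes or antibodies.

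Intergenic DNA near genes holds many enhancers, stretches to which transcription factors bind and from which they act on genes at a distance. Arid1a belongs to the BAF form of the SWI/SNF complex, which moves nucleosomes and is known for keeping enhancers accessible. HDAC6 is a deacetylase found mainly in the cytoplasm, where tubulin is its best-known substrate. The lists hold no expression, so the loss of Arid1a was not checked here, and the knockout peaks carry the name of the antibody used. In the lists, the pileup is the number of ChIP fragments over the summit, and the fold enrichment (fold) is the authors' ratio of that pileup to the local background in a library without immunoprecipitation (no-IP). Whether the 3 lists share 1 no-IP library, and the genotype of its islets, are not given in the sources used here, so folds and backgrounds set side by side between lists may rest on different no-IP libraries.

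In each list the 5 to 50 kb zone held the most peaks per megabase. The zone covered 484 Mb, or 18.4% of the territory, while DNA in or within 5 kb of genes covered 1177 Mb and DNA farther than 50 kb covered 971 Mb. Control Arid1a peaks numbered 19.4 per 100 Mb in the zone (exact Poisson 95% interval 15.7 to 23.8), against 5.69 (4.41 to 7.23) in or within 5 kb of genes and 8.24 (6.53 to 10.3) farther out. Knockout Arid1a peaks numbered 23.6 (19.4 to 28.3), against 8.75 (7.15 to 10.6) and 15.2 (12.9 to 17.9). HDAC6 peaks numbered 13.2 (10.2 to 16.9), against 5.44 (4.19 to 6.95) and 9.78 (7.92 to 12.0), and the interval of remote DNA overlapped that of the zone. When peaks within 10 kb of one another counted once, control Arid1a kept 12.4 per 100 Mb (9.46 to 16.0), above the 4.50 (3.37 to 5.89) of genes and the 6.18 (4.72 to 7.95) of remote DNA. For the knockout the values were 18.2 (14.6 to 22.4), 7.56 (6.07 to 9.31) and 12.8 (10.6 to 15.2), and for HDAC6 9.51 (6.96 to 12.7), 4.93 (3.74 to 6.37) and 7.52 (5.89 to 9.45). Counted that way, the interval of the zone stood clear of that near genes in all 3 lists, and of that in remote DNA only for control Arid1a. Assembly gaps and bases to which short reads do not map were not removed from any territory.

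**Figure D1:**
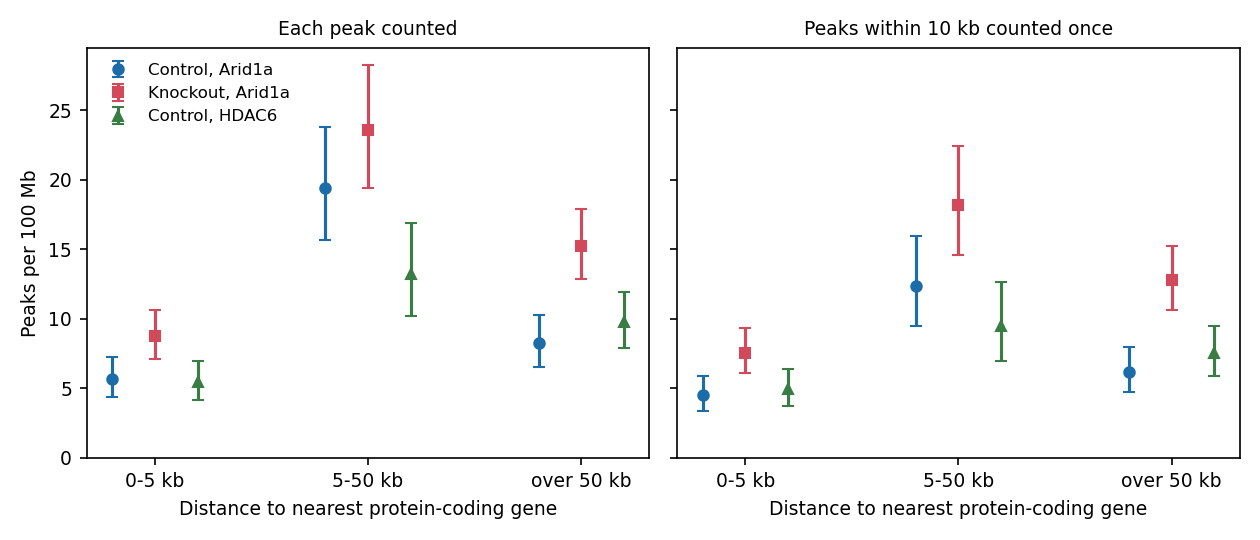
Peaks per 100 Mb (y axis) by distance to the nearest protein-coding gene (x axis), for each list, counting each peak (left) or peaks within 10 kb once (right); bars are exact Poisson 95% intervals. In both panels the 5 to 50 kb class is highest in each list, with 19.4, 23.6 and 13.2 peaks per 100 Mb on the left and 12.4, 18.2 and 9.51 on the right.

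Within the zone the median peak lay nearer the inner limit than the outer one. The median distance to the nearest gene was 20.9 kb for control Arid1a, 18.8 kb for knockout Arid1a and 20.2 kb for HDAC6. The bin from 10 to 20 kb held the most, with 35, 43 and 25 peaks in that order, and the bin from 40 to 50 kb held 10, 11 and 6. The narrower bin from 5 to 10 kb held 8, 20 and 7. How much DNA lies at each distance was not counted, so these numbers show no preference for a distance. The peaks just inside the inner limit were an HDAC6 peak 5070 bp from Rhox4f (fold 4.41) and a control Arid1a peak 5111 bp from Gm21149 (fold 2.52). Just outside it lay an HDAC6 peak 4955 bp from Gm21149 (fold 3.48), which overlapped that control peak, and a knockout peak 4897 bp from Gm12888 (fold 7.52). At the outer limit the last peaks inside were a knockout peak 48148 bp from 4930519F16Rik (fold 5.84) and an HDAC6 peak 48058 bp from Gas8 (fold 5.21). The first outside were a pair beside Pls3, at 50046 bp for control Arid1a (fold 11.8) and 50518 bp for HDAC6 (fold 12.4).

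Fold differed little between the 3 lists in the zone. The fold ran from 1.45 over a median of 4.83 to 23.5 for control Arid1a, from 1.91 over 5.25 to 14.3 for the knockout, and from 1.92 over 4.83 to 9.36 for HDAC6. Binomial 95% intervals of those medians were 4.47 to 5.12, 4.85 to 5.39 and 4.41 to 5.46, which overlap. Median pileups were 19, 15 and 18 fragments, over median backgrounds of 2.72, 1.68 and 2.64 fragments. The smallest background of each whole list was 1.64, 1.23 and 1.50 fragments, and the knockout list is lowest in that measure as in pileup. It serves only as a rough guide to relative depth, since it may also depend on peak-calling settings, which are not given here. The shortest peaks of the whole lists were 331, 305 and 305 bp long. No-IP background lay within 1% of the smallest background of the list at 16 control Arid1a, 17 knockout and 6 HDAC6 peaks of the zone. The q-value was over 0.05 for 4 control Arid1a peaks, 0 knockout peaks and 1 HDAC6 peak.

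A small set stood on high background. No-IP background was 10 fragments or more at 2 of 94 control Arid1a, 5 of 114 knockout and 4 of 64 HDAC6 peaks, and the fold there was at most 3.15. The remote peaks over 50 kb from genes had more of this kind, at 13 of 80 (16.3%, 8.95% to 26.2%) of control Arid1a peaks against 2.13% (0.259% to 7.48%) in the zone, and these intervals did not overlap. For the knockout the shares were 14.2% (9.0% to 20.9%) and 4.39% (1.44% to 9.94%), and for HDAC6 17.9% (10.8% to 27.1%) and 6.25% (1.73% to 15.2%), with intervals that overlapped in both lists. A site on chromosome 1 beside the collagen gene Col19a1, over the pseudogene Gm10222 and, in the knockout and HDAC6 lists, also Gm10925, had pileups of 1046, 1122 and 2142 fragments for control Arid1a, the knockout and HDAC6 respectively, with folds of 1.45, 2.90 and 3.15. A site 10.0 kb from Gm39469 on chromosome 9 was also in the 3 lists, with folds of 1.75, 2.31 and 2.16 over backgrounds of 80.8, 59.3 and 74.9 fragments. The highest pileup of the zone, 27035 fragments at chr9:35305249-35305555 in the knockout list, 29.3 kb from Rpusd4, had a fold of 2.21.

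**Figure D2:**
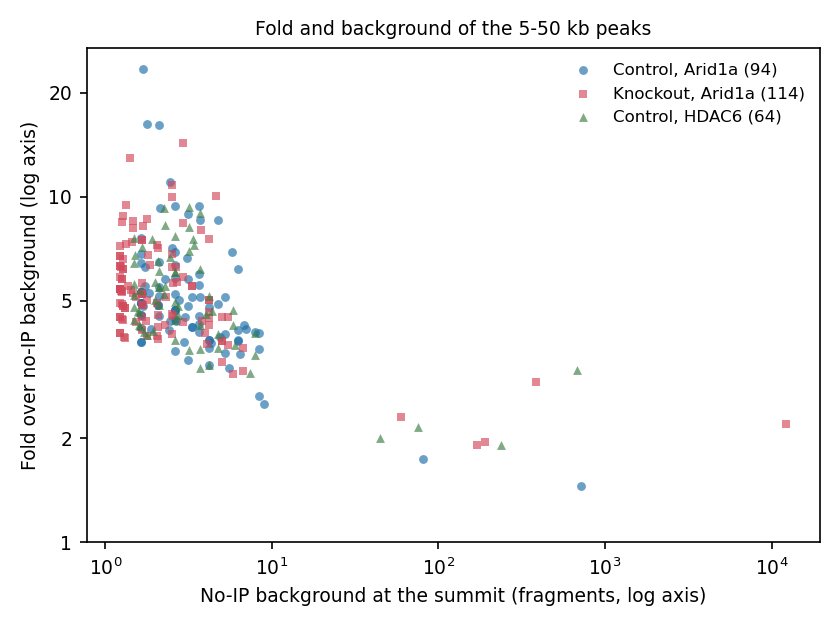
Fold over the no-IP background (y axis, log) against the no-IP background in fragments at the summit (x axis, log) for each peak of the zone; each point is 1 peak and the number per list is in the legend. Points at a background of 10 fragments or more have folds of at most 3.15. A fold of 10 is exceeded by 4 control Arid1a and 4 knockout points, and the highest HDAC6 fold is 9.36.

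By fold, the 3 strongest control Arid1a peaks in the zone had no counterpart in another list. The highest, at chr17:49941084-49941464, had a pileup of 62 and a fold of 23.5 and lay 31.2 kb from Kif6, a kinesin motor gene (49615098 to 49909847). Next came chr9:32355137-32356377, with a pileup of 44 and a fold of 16.2, 10.8 kb from Kcnj5, which encodes a subunit of G protein-gated potassium channels (32314706 to 32344380), and over the long noncoding RNA gene Gm39317. The third, at chr17:9030851-9031238, had a pileup of 49 and a fold of 16.1 and lay 22.5 kb from 1700010I14Rik. The knockout and HDAC6 lists called peaks of the zone at pileups as low as 8 and 10 fragments, but a list gives no level where no peak was called.

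Of the next 5 control Arid1a peaks by fold, 4 were at shared sites. Ranks 4 and 5 lay beside the histamine receptor gene Hrh1, with folds of 11.0 and 9.43, rank 6 beside Crp (9.41) and rank 8 beside the vomeronasal receptor gene V1rd19 (8.92), each called in all 3 lists. Rank 7, at chr14:3124392-3124975 and 5678 bp from Gm10340 (fold 9.30), was in the control Arid1a list alone.

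Crp, the gene of the acute phase protein C-reactive protein (chromosome 1, 172698056 to 172699966), had the strongest knockout peak of the zone. It spanned chr1:172721507-172722015, 21.5 kb from the gene, with a pileup of 55 and a fold of 14.3. At the same site the control Arid1a peak had a pileup of 43 and the HDAC6 peak one of 41, with folds of 9.41 and 8.95, and the 3 summits lay within 9 bp. The knockout value was thus the highest of the 3 in both measures.

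The other leading knockout peaks were a mix. A peak 5489 bp from Dynlrb1, a dynein light chain gene, reached a fold of 12.9 with no counterpart in either control list, as did those beside the olfactory receptor gene Olfr1153 (10.0), the minor spliceosome gene Rnpc3 (9.47) and the amino acid transporter gene Slc7a12 (8.80). A site 5516 bp from Pgk2, the testis form of phosphoglycerate kinase, was called in the knockout list with a pileup of 37 (fold 10.8) and in the HDAC6 list with a pileup of 33 (fold 8.16), and not in control Arid1a. V1rd19 had the strongest HDAC6 peak of the zone, and the site was even across the lists, with pileups of 36, 34 and 38 and folds of 8.92, 9.99 and 9.36 for control Arid1a, the knockout and HDAC6 respectively. Among the 8 strongest HDAC6 peaks, the only one found in no other list was beside the vomeronasal receptor gene Vmn2r75 (fold 7.55). A site 43.6 kb from Pdc, which encodes the photoreceptor protein phosducin, was in both control lists (control Arid1a fold 5.78, HDAC6 fold 7.69) and not in the knockout list. On chromosome X, a site at 32.4 kb from Pls3, whose protein bundles actin, was in the knockout and HDAC6 lists (7.19 and 7.61) and not in control Arid1a.

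Calls were shared between lists in the zone at about the rate of all peaks. Of the 94 control Arid1a peaks, 35 (37.2%, exact 95% interval 27.5% to 47.8%) overlapped a knockout peak by at least 1 bp, beside 39% over all placed peaks of that list. An HDAC6 peak was called at 29 of the 94 (30.9%, 21.7% to 41.2%), beside 33.2%. Of the 114 knockout peaks, 35 (30.7%, 22.4% to 40.0%) were called in control Arid1a, beside 26%, and 28 (24.6%, 17.0% to 33.5%) in HDAC6, beside 23.3%. Of the 64 HDAC6 peaks, 28 (43.8%, 31.4% to 56.7%) were called in control Arid1a, beside 35.9%, and 28 in the knockout, beside 38.6%. Both other lists called 19 peaks of control Arid1a (20.2%, 12.6% to 29.8%), beside 22.4%. They called 18 of the knockout (15.8%, 9.63% to 23.8%), beside 14.5%, and 18 of HDAC6 (28.1%, 17.6% to 40.8%), beside 23.8%. Each share over all peaks lay within the interval of the zone's share. Cluster size was counted over the 3 lists together, so a site called in several lists brings its own peaks toward a cluster, and leaving out the 16 clusters of at least 4 peaks takes away shared calls by construction. The shares that remain are given as a description, and the choice was made after the data were seen. Outside those clusters 20.4% of 49 control Arid1a peaks were called in the knockout and 10.2% in HDAC6. Of 71 knockout peaks 14.1% were then called in control Arid1a and 11.3% in HDAC6, and of 27 HDAC6 peaks 14.8% in control Arid1a and 29.6% in the knockout. In the control Arid1a list the share called in HDAC6 stood between 20.9% (11.9% to 32.6%) for peaks in or within 5 kb of genes and 46.3% (35.0% to 57.8%) for remote peaks, and the intervals of the zone overlapped both.

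**Figure D3:**
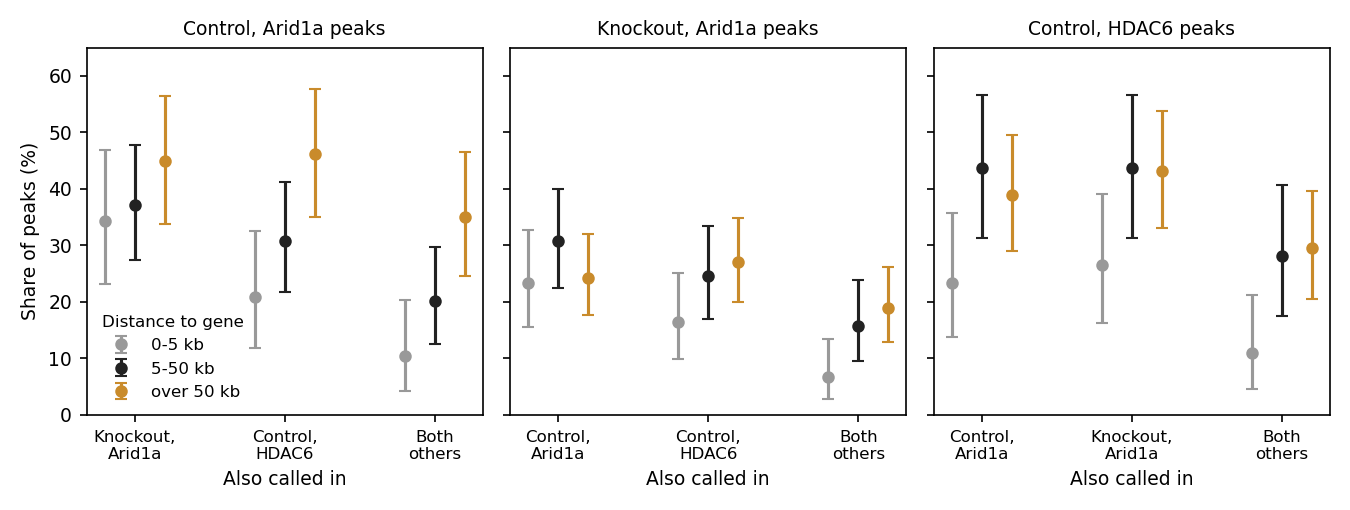
Share of peaks of each list (panels) that were also called in another list or in both (x axis), in percent (y axis), by distance to the nearest gene; bars are exact binomial 95% intervals. The intervals of the 5 to 50 kb class overlap those of the other distance classes in each comparison shown, and its control Arid1a share in the knockout list is 37.2%.

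Joined by overlap, directly or through a peak of another list, the peaks of the zone formed 199 sites. Of these, 49 were in the control Arid1a list alone, 69 in the knockout list alone and 26 in the HDAC6 list alone. The control and knockout Arid1a lists alone shared 16 sites, the 2 control lists alone 10, the knockout Arid1a and HDAC6 lists alone 10, and 19 were in all 3. Sharing and strength went together in part. Control Arid1a peaks in 1, 2 and 3 lists had median folds of 4.52, 4.88 and 5.99. For the knockout these were 5.03, 5.39 and 6.23, and for HDAC6 4.83, 4.63 and 5.83. Without the largest cluster, beside Hrh1, the peaks in 3 lists had medians of 5.08, 4.49 and 4.70, so that for the knockout and HDAC6 they no longer exceeded the 5.03 and 4.85 of peaks in 1 list.

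At shared sites of the zone the knockout pileup was mostly lower than the control, and the fold was not. Over the 35 overlapping pairs of control and knockout Arid1a peaks, the knockout pileup was lower in 30, higher in 3 and equal in 2, with a median ratio of 0.786. Over the 60 such pairs of other placed peaks it was lower in 31, higher in 25 and equal in 4 (median ratio 0.923). In the 46 of those with backgrounds under 10 fragments it was lower in 29 and higher in 13 (0.833). The smallest backgrounds of the whole lists have a ratio of 0.749. The fold, which divides by the background of each site, was higher in the knockout in 22 of the 35 pairs, with a median ratio of 1.08. Between the knockout and HDAC6 lists the HDAC6 pileup was higher in 22 of 28 pairs (median ratio 1.22, beside a ratio of 1.22 of the smallest backgrounds), and the fold was higher in 15 of 28 (median ratio 1.01). Over the 58 such pairs of other placed peaks the HDAC6 pileup was higher in 27 and lower in 27. The HDAC6 fold was higher in 14 of those and lower in 44 (median ratio 0.847). Whether depth sets these ratios was not tested. Between the control lists, HDAC6 had the lower pileup in 16 of 29 pairs and the higher in 12, with a median ratio of 0.952. Without the cluster beside Hrh1 it was lower in 9 and higher in 10 of 20 pairs, with a median ratio of 1.03, so the direction rests on that cluster. Summits lay within 100 bp of each other in 21 of 35, 15 of 29 and 20 of 28 pairs, in the order control with knockout Arid1a, control Arid1a with HDAC6, and knockout Arid1a with HDAC6.

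**Figure D4:**
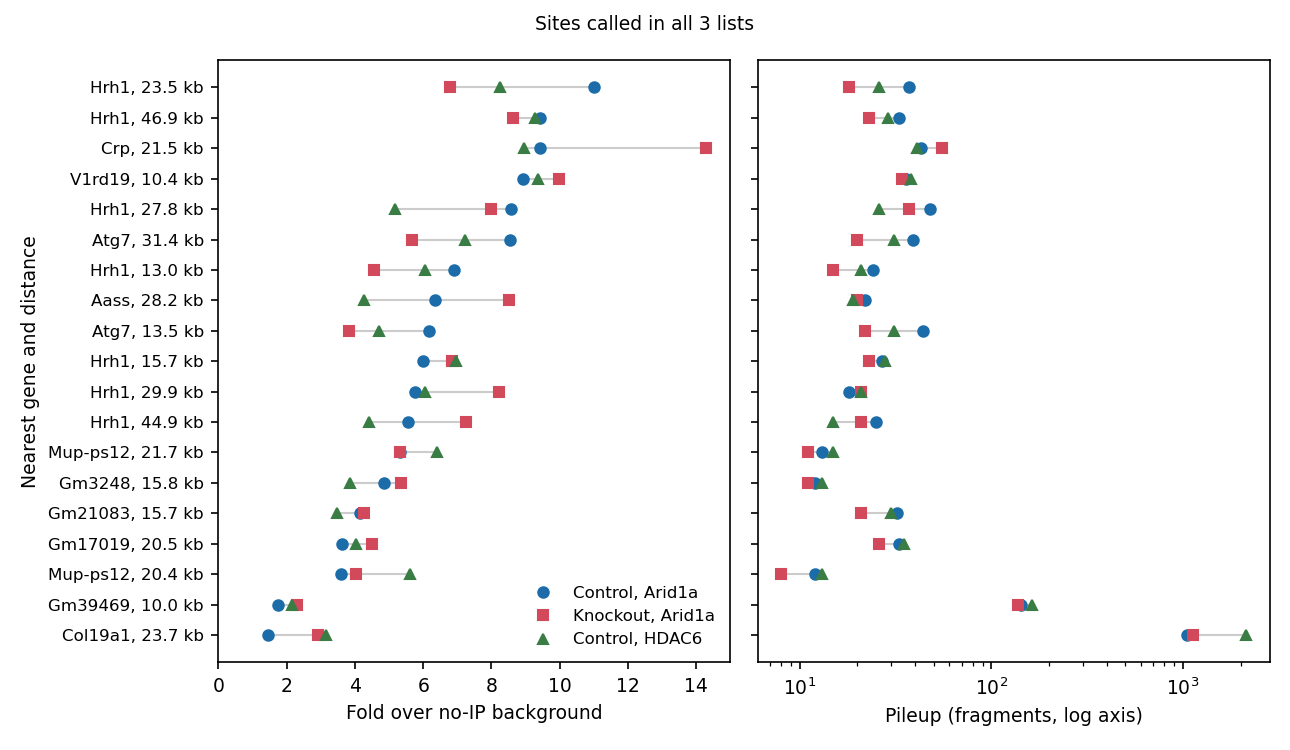
Fold over the no-IP background (left) and pileup in fragments (right, log axis) at the 19 sites called in all 3 lists, each row a site named by its nearest gene and distance; the grey line spans the 3 values. The knockout pileup is the lowest of the 3 at 13 sites, while its fold is the highest at 9.

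Peaks of the zone also gathered within a list. Another peak of the same list lay within 10 kb of 50 of the 94 peaks for control Arid1a (53.2%, 42.6% to 63.6%). The same held for 38 of 114 in the knockout (33.3%, 24.8% to 42.8%) and 30 of 64 for HDAC6 (46.9%, 34.3% to 59.8%). In or within 5 kb of genes the shares were 34.3% (23.2% to 46.9%), 23.3% (15.5% to 32.7%) and 15.6% (7.76% to 26.9%), and only the HDAC6 interval stood apart from that of the zone. Among remote peaks they were 30.0% (20.3% to 41.3%), 19.6% (13.5% to 26.9%) and 29.5% (20.6% to 39.7%), and there only the control Arid1a interval stood apart. Over the 3 lists together, 125 of the 272 peaks (46.0%) lay in the 16 clusters, and 96 (35.3%) had no other peak of the zone within 10 kb.

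A few neighbourhoods held most of the shared calls. When peaks of the zone at most 500 kb apart were joined, a distance chosen after the data were seen, 8 neighbourhoods with at least 6 peaks held 137 of the 272 (50.4%). Of the control Arid1a peaks inside them 36 of 55 (65.5%, 51.4% to 77.8%) were called in another list, against 9 of 39 (23.1%, 11.1% to 39.3%) elsewhere. For the knockout these were 31 of 48 (64.6%, 49.5% to 77.8%) and 14 of 66 (21.2%, 12.1% to 33.0%), and for HDAC6 27 of 34 (79.4%, 62.1% to 91.3%) and 11 of 30 (36.7%, 19.9% to 56.1%). The neighbourhoods were built from the 3 lists together, so a site called in several lists adds to their size, and this contrast is a description. Median folds inside and outside were close, at 4.82 and 4.86 for control Arid1a, 5.08 and 5.26 for the knockout, and 4.69 and 4.99 for HDAC6. Median backgrounds were higher inside, at 3.30 against 2.12, 2.19 against 1.47, and 2.95 against 2.10 fragments.

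The neighbourhood with the most peaks was the 159.8 kb gap between Hrh1 (chromosome 6, 114397936 to 114483298) and Atg7, an autophagy gene (114643127 to 114860604). Its flanks within 50 kb of either gene held 17 control Arid1a, 12 knockout and 14 HDAC6 peaks, and the middle, over 50 kb from both genes, a further 13, 8 and 10. The highest folds of the gap lay in that middle, at 18.8 for control Arid1a, 14.7 for the knockout and 15.4 for HDAC6. On the flanks, median backgrounds were 2.02, 2.04 and 1.94 times the smallest background of the list, in the same order. The flank beside Hrh1 was 1 unbroken cluster of 34 peaks (gaps of at most 10 kb) at chr6:114496327-114531062, which formed 15 sites, 7 of them in all 3 lists. Only peaks of the zone count toward a cluster, so its outer end is set by the 50 kb limit. Peaks of the middle went on from a summit 54.2 kb from Hrh1. The strongest control Arid1a peak of the cluster, 23.5 kb from Hrh1, had a pileup of 37 and a fold of 11.0. At that site the knockout peak had a pileup of 18 and a fold of 6.80, and the HDAC6 peak a pileup of 26 and a fold of 8.26. At the site 46.9 kb from Hrh1 the order by fold was the same but narrow, at 9.43, 9.27 and 8.63 for control Arid1a, HDAC6 and knockout Arid1a. At the site 29.9 kb from Hrh1 the knockout fold was the highest, at 8.21 against 5.77 and 6.05. Sites 15.7 kb, 27.8 kb, 44.9 kb and 13.0 kb from Hrh1 were also in all 3 lists, with control Arid1a folds of 5.99, 8.56, 5.56 and 6.90. No one list led throughout the cluster: of its 7 sites in all 3 lists, the fold was highest in control Arid1a at 4, in the knockout at 2 and in HDAC6 at 1. On the Atg7 side, sites 31.4 kb and 13.5 kb from the gene were in all 3 lists, with control Arid1a folds of 8.54 and 6.17 and knockout folds of 5.66 and 3.83.

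**Figure D5:**
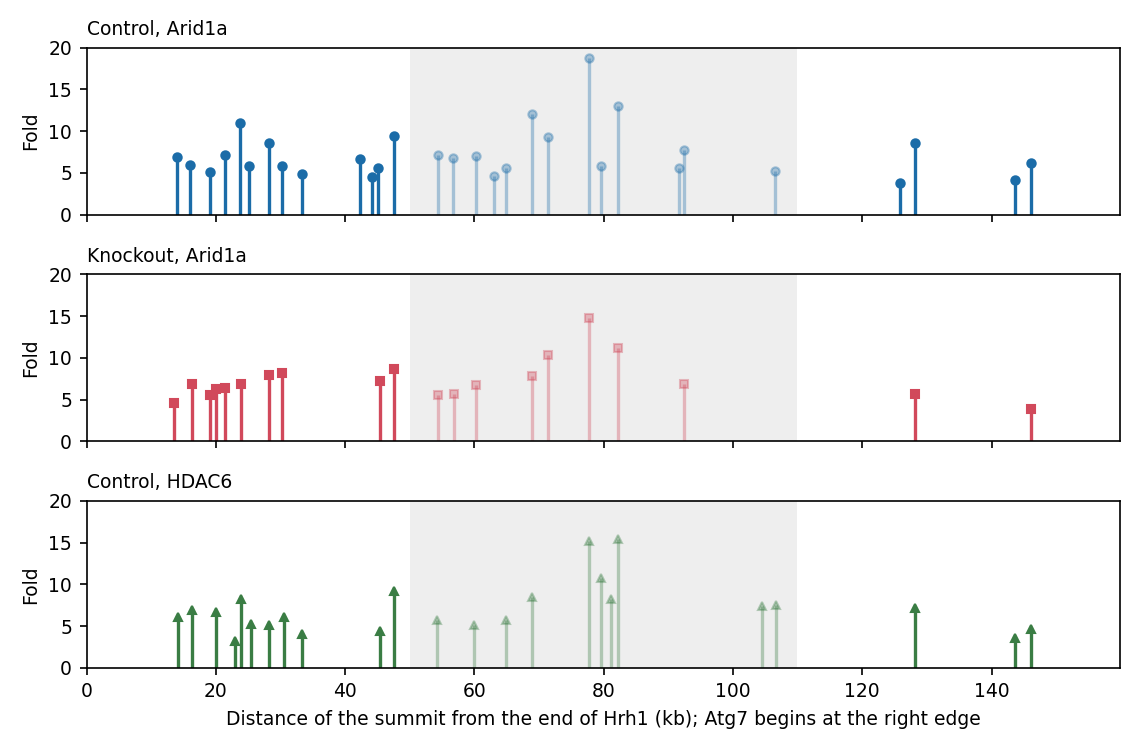
Fold of each peak (y axis) by the distance of its summit from the end of Hrh1 in kb (x axis) for the 3 lists; full colour marks peaks 5 to 50 kb from a gene, pale colour and grey shading the DNA over 50 kb from both genes. The flank near Hrh1 carries a row of peaks in each list, with a control Arid1a maximum of 11.0, while the flank near Atg7 holds 9 peaks over the 3 lists. The highest folds of each list, 18.8 for control Arid1a, 14.7 for the knockout and 15.4 for HDAC6, are in the shaded middle.

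A second neighbourhood, of 41 peaks over 731 kb of chromosome 5 (14959400 to 15690733), lay among Speer4c, Speer4d and 5 predicted genes. Speer genes form a rodent family of glutamate-rich proteins expressed in spermatogenesis. It held 15 control Arid1a, 17 knockout and 9 HDAC6 peaks, with median folds of 4.11, 4.45 and 3.72, below the medians of the zone. Median backgrounds there exceeded the smallest background of the list 3.82, 3.41 and 3.18 times. Of its 26 sites 12 were in 1 list and 2 in all 3, beside Gm21083 (folds 4.15, 4.25 and 3.48) and Gm17019 (3.62, 4.49 and 4.04). Its clusters of at least 4 peaks held 9, 7, 5, 5, 4 and 4 peaks; the first, at 15630809 to 15653520 between Speer4d and Speer4c, had 1 control Arid1a, 6 knockout and 2 HDAC6 peaks. On chromosome 4, between Mup-ps12 and Mup17 of the major urinary protein family of pheromone carriers, 14 peaks lay within 23.2 kb (61554138 to 61577330). The lists had 5, 6 and 3 of them, with pileups of 11 to 14, 8 to 19 and 10 to 15 fragments, on median backgrounds of 1.64, 1.24 and 1.50 fragments, at or near the smallest of each list. Median pileups there were 12, 11 and 13 fragments, below the medians of the zone in each list, and 2 of the 9 sites were in all 3 lists. At the first, 20.4 kb from Mup-ps12, the folds were 3.59 (control Arid1a), 4.04 (knockout) and 5.61 (HDAC6), and at the second, 21.7 kb away, 5.31, 5.33 and 6.41. HDAC6 was the highest at both, but the summits of the 3 lists spread over 577 and 666 bp. At the first site the pileups were 12, 8 and 13 fragments, over backgrounds of 2.62, 1.23 and 1.50 fragments.

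Beside Aass, a lysine catabolism gene (chromosome 6, 23072173 to 23132986), 9 peaks filled 10.1 kb (23157552 to 23167678), and 8 of the 9 overlapped the pseudogenes Gm5989, Gm8950 or Gm5301. The site 28.2 kb from Aass was in all 3 lists, with pileups of 22, 20 and 19 and folds of 6.35, 8.52 and 4.26 in the same order of lists as above. On chromosome X (31137928 to 31751648), among genes of the Btbd35f and Spin2 families, 6 control Arid1a and 3 knockout peaks formed 8 sites, of which 7 were in 1 list, and the HDAC6 list had 0 peaks of the zone there. On chromosome 14 the neighbourhoods at 6570127 to 6999378 (8 peaks, beside Gm10406 and Gm33933) and 5973164 to 5986820 (6 peaks, beside Gm3248 and LOC115488283) lay among predicted genes. The site 15.8 kb from Gm3248 was in all 3 lists, with folds of 4.84, 5.34 and 3.85. There the knockout and HDAC6 peaks each overlapped the control Arid1a peak but not each other. The remaining clusters of 4 peaks lay beside Gm39469 on chromosome 9, on the high background described above, and beside Pls3 on chromosome X (75744533 to 75753277), where 4 of 4 peaks overlapped a noncoding gene.

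The neighbourhood between Gas8 and Rhou on chromosome 8 coincided with an array of 5S ribosomal RNA genes. RefSeq places 41 genes named n-R5s in this 117.3 kb gap, at a median spacing of 1702 bp, out of 69 on the chromosomes used. The gap held 3 control Arid1a, 2 knockout and 2 HDAC6 peaks of the zone, with folds of 3.79 to 5.51. Both knockout peaks overlapped a 5S gene: chr8:123569109-123569557 held n-R5s118, and chr8:123581098-123581497 held n-R5s125, with the summit inside it. Of the control Arid1a peaks 1 of 3 overlapped a 5S gene (n-R5s149), and the HDAC6 peaks lay 62 and 550 bp from one. At a median spacing of 1702 bp any place in the array is close to a 5S gene. These overlaps and distances therefore tie no peak to a 5S gene. The 7 peaks formed 7 sites, each in 1 list, so no call of the zone there was shared between lists. Peaks in the middle of the gap, over 50 kb from both genes, were not counted here. Reads from near-identical copies cannot be assigned to 1 copy with certainty, and the same limit holds for the Speer, Mup, Btbd35f and predicted gene neighbourhoods.

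The zone is intergenic with respect to protein-coding genes only. In all, 59 of the 272 peaks (21.7%) overlapped another RefSeq gene span: 37 a long noncoding RNA, 19 a pseudogene and 3 a ribosomal RNA gene. The share was 22.3% (14.4% to 32.1%) for control Arid1a, 21.9% (14.7% to 30.6%) for the knockout and 20.3% (11.3% to 32.2%) for HDAC6. Among remote peaks it was 2.50% (0.304% to 8.74%), 2.70% (0.741% to 6.78%) and 5.26% (1.73% to 11.9%); the intervals did not overlap for the Arid1a lists and did for HDAC6. For peaks in or within 5 kb of genes the share was 11.9% (5.30% to 22.2%), 11.7% (6.17% to 19.5%) and 7.81% (2.59% to 17.3%). Those intervals overlapped the interval of the zone in all 3 lists. How much noncoding gene DNA each zone holds was not tested.

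The 272 peaks had 126 different nearest genes, of which 85 were nearest to 1 peak and 18 were nearest to peaks of all 3 lists. Numbered predicted genes (Gm and LOC) were nearest to 20.6% of the peaks, beside 18.5% of the other placed peaks, and make up 5.67% of the gene spans. Major urinary protein genes were nearest to 14 peaks of the zone and 0 others, Speer genes to 18 and 3, and Btbd35f genes to 15 and 14. Olfactory receptor genes, 5.13% of the gene spans, were nearest to 7 peaks of the zone (2.57%), each a different gene, and to 0.359% of the others. Vomeronasal receptor genes, 1.65% of the spans, were nearest to 5 (1.84%), a share near that of the spans, and to 0.359% of the others. These families were picked after their peaks were seen and were not tested.

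No gene of the islet and related gene lists was next to a peak of the zone. A total of 155 genes in 10 lists (markers of beta, other endocrine, duct, acinar and stromal, vascular or immune cells, and genes of endocrine development, insulin signalling with glucose metabolism, exocytosis, the SWI/SNF complex and deacetylases) were looked for on both sides of each peak. A listed gene was the next gene on either side of 0 of the 272 peaks, beside 22 pairings of a peak with a list over all placed peaks. Neither the insulin genes Ins1 and Ins2 nor the glucagon gene Gcg was thus the next gene beside any peak of the zone. The 22 pairings came from 241 control Arid1a, 365 knockout and 223 HDAC6 placed peaks. A peak can count in more than 1 pairing, so the 22 is no count of peaks, and the difference from the zone was not tested. The lists held 155 genes, beside 21627 protein-coding gene spans in all, and the 272 peaks had 126 different nearest genes. The 0 is therefore given as a description. Gaps between the genes on either side of a peak had a median of 106.0 kb, from 13.2 kb to 3975 kb.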

How the data were processed

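The 3 peak lists, 1 per library, were each called by the authors against a no-IP library, as the deposited peak names say; whether it was the same library for each list is not given in the sources used here. Per the submitters' processing notes the build was mm10, and edgeR 3.4.6, bedtools, Bowtie2 2.2.6, Bowtie and cutadapt were among the tools, with no roles given; the peak caller is not given in the sources used here. The deposited pileup is an unscaled signal in whole fragments, the deposited fold is a ratio to no-IP background, and the deposited −log10 p-value and −log10 q-value are the authors'. The authors' values served to describe, rank and filter peaks within a list.

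Background was recovered as (pileup + 1) / fold − 1; a Poisson p from it lay within 1% of the deposited −log10 p for 94 of 94, 113 of 114 and 63 of 64 peaks (control Arid1a, knockout Arid1a, HDAC6). Genes were 21627 protein-coding spans of the RefSeq table for GRCm38.p6, whose chromosome coordinates are those of mm10. Distances ran from peak ends to gene spans; territory ran to 50 kb past each chromosome's last gene. Overlap meant at least 1 bp, clusters had gaps of at most 10 kb, and neighbourhoods (chosen after the data were seen) had gaps of at most 500 kb and at least 6 peaks. Shares have exact 95% binomial intervals, densities exact Poisson intervals; no test was run, since each group held 1 library. Python 3.11.15, pandas 2.3.3 and scipy 1.17.1 were used, and the interval code was tested on simulated data.

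Peaks named are the 8 of highest fold per list, sites in all 3 lists (those of higher fold in full), clusters of at least 4 peaks, peaks beside listed genes, those nearest the distance limits and those of highest pileup or background. The peak set and gene lists were chosen with earlier results of these data known. Total reads per library are not in the lists, so depth could be judged only roughly, through the smallest background, which may also depend on peak-calling settings. No genome sequence was used.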

Additional observations from a re-analysis of the deposited data

How the results depend on the processing

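Of 69 alternative values of 21 results, 61 stayed within their interval or within 1.5 times the count. These covered distance from the summit, distance to all genes with noncoding ones included, an overlap of at least 50% of the shorter peak, a q-value of at most 0.01, clusters counted once, backgrounds under 10 fragments and leaving out the cluster beside Hrh1. With distance to all genes the counts were 95, 139 and 85 against 94, 114 and 64 (control Arid1a, knockout, HDAC6). Only the counts were compared there, and the 59 peaks over noncoding genes leave the zone under that choice. Keeping backgrounds under 10 fragments removed only 2, 5 and 4 peaks. The other 8 values moved. Leaving out every cluster of at least 4 peaks, added after the data were seen, removes shared calls by construction, since cluster size counts the peaks of the 3 lists together, and so does not show how far sharing depends on clustering. With that choice the share of control Arid1a peaks called in the knockout was 20.4% and in HDAC6 10.2%, that of knockout peaks in control Arid1a 14.1% and in HDAC6 11.3%, and that of HDAC6 peaks in control Arid1a 14.8% and in the knockout 29.6%. With 50 kb in place of 10 kb as the distance to another peak of the same list, the share with such a peak was 66.0% for control Arid1a and 43.0% for the knockout; a wider distance can only raise it. No paired analysis was possible because each group held 1 library, and for the same reason no replicate could be left out. The lists give no total reads, so depth could not be equalised, and a place without a call has no measured level.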
